A study of Arabidopsis thaliana with 24 samples.

Results

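Transcript levels were measured for the 5 DELLA repressors and the 3 GID1 receptors of gibberellin signalling in Arabidopsis thaliana: RGA (AT2G01570), GAI (AT1G14920), RGL1 (AT1G66350), RGL2 (AT3G03450) and RGL3 (AT5G17490), and GID1A (AT3G05120), GID1B (AT3G63010) and GID1C (AT5G27320). The 8 genes were taken by locus identifier from the 33323 genes of the deposited table, by a rule that used no values. Earlier results of these data were known when they were chosen. All 8 passed the filter on low values. All plants were wild-type Col-0, grown for 14 days in cycles of 12 h light and 12 h dark and then moved to constant light. Shoot apex and true leaves were cryodissected from 6 to 10 frozen seedlings per sample at Zeitgeber time (ZT) 90, 94, 98, 102, 106 and 110 h, which gave 12 groups of 2 libraries (24 in all). The labels describe no treatment, although each column of the deposited table has mock in its name, and they do not say which replicate number came from which of the 2 independent experiments.

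Gibberellin is a growth hormone that is bound by the soluble GID1 receptors, and the hormone-bound receptor then binds a DELLA protein. The F-box protein SLY1 directs the captured DELLA to breakdown, which frees the transcription factors that DELLAs hold back. DELLAs are nuclear GRAS-family proteins without a DNA-binding domain of their own. Their abundance is set to a large extent by protein breakdown, and protein was not measured here. RGA and GAI are the main repressors of stem and leaf growth, RGL2 is best known for holding back seed germination, RGL1 acts with the others in germination and flower development, and RGL3 is linked to jasmonate and stress responses. The GID1 receptors act redundantly.

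The family is named for a run of 5 residues near the start of the protein, in the region that the hormone-bound receptor contacts. The coding bases of that run and its surroundings are shown for each DELLA gene, because they show how alike the transcripts are that were told apart by the values below. Each line holds 60 coding bases, 5′ to 3′, from RefSeq (TAIR10.1), with the 15 bases encoding the run in capitals.
RGA: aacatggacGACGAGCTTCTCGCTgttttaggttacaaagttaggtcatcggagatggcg
GAI: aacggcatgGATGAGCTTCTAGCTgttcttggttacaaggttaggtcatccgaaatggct
RGL1: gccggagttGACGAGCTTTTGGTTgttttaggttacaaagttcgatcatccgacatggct
RGL2: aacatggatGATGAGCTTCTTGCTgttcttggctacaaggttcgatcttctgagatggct
RGL3: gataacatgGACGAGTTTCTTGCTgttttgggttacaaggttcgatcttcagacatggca
None of the 5 residues differed from the family's namesake run in RGA, GAI and RGL2, and 1 of 5 differed in RGL1 and in RGL3. Over the 10 pairs, 43 to 48 of the 60 bases were identical. Over the whole aligned coding sequence RGA and GAI shared 82.6% of bases, RGL2 and RGL3 77.4%, and GID1A and GID1C 83.8%. The DELLA genes have 1 exon each and the GID1 genes 2. No window of 50 bases, the read length, was shared exactly between any of the 8 transcripts and another annotated transcript (0 windows for each), and no annotated gene overlapped them.

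The 250 bases before the annotated start of GAI and of GID1A are shown because a searched motif occurred in these 2 promoters, and both genes had a wave in leaves that differed from the one in the shoot apex (below). The motif is in capitals, positions are counted back from the start of the gene, and both genes lie on the + strand of TAIR10.1. The GAI window is chr1:5148732-5148981 and holds AAAATATCT, the evening element bound by clock proteins, at -136 to -128. The GID1A window is chr3:1430113-1430362 and holds the TCP site TGGGCC, read on the opposite strand, at -99 to -94.
GAI promoter: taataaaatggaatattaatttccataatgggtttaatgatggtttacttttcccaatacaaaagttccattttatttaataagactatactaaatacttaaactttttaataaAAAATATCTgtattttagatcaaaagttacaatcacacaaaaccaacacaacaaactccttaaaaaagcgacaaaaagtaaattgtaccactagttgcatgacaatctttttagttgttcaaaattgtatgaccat
GID1A promoter: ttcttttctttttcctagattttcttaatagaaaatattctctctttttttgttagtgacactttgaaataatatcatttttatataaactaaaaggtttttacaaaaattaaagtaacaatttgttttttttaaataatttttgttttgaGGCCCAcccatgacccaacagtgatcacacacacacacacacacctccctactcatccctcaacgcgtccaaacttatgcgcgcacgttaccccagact
The 6 motifs searched on both strands were AAAATATCT (in 2.36% of 27443 promoters of the same length), the LUX sites GATTCG (7.88%) and GATACG (4.6%), the G-box CACGTG (6.49%), the CCA1 site AAAAATCT (6.69%) and TGGGCC (13.7%). The windows of the other 6 genes held none of these letters. A match describes the letters and not a bound site.

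Levels are FPKM (fragment counts scaled to transcript length and library size), so they can be compared between genes. In the shoot apex RGA was the most abundant of the 8 transcripts, and RGL3 the least. RGA stood at 78.2 ± 4.37 FPKM there (SD, n = 12 libraries), GAI at 35.7 ± 2.66, RGL1 at 15.7 ± 1.74 and GID1A at 14.8 ± 1.37. GID1C followed at 5.58 ± 0.737, then RGL2 at 4.40 ± 0.852, GID1B at 3.68 ± 0.373 and RGL3 at 2.51 ± 0.441. Among neighbours in this order, the 12 libraries of RGL1 and GID1A, of GID1C and RGL2 and of RGL2 and GID1B overlapped, with the first of each pair higher in 8, 8 and 9 of 12 libraries, and the other neighbours did not overlap. In leaves the order was RGA, GAI, RGL1, GID1A, GID1C, RGL2, GID1B and RGL3, and only GAI and RGL1 were neighbours without overlap. RGA was above GAI in each of the 12 leaf libraries, although their ranges overlapped. GID1C was above RGL2 in 6 of 12 leaf libraries, and GID1B above RGL3 in 6 of 12.

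**Figure D1:**
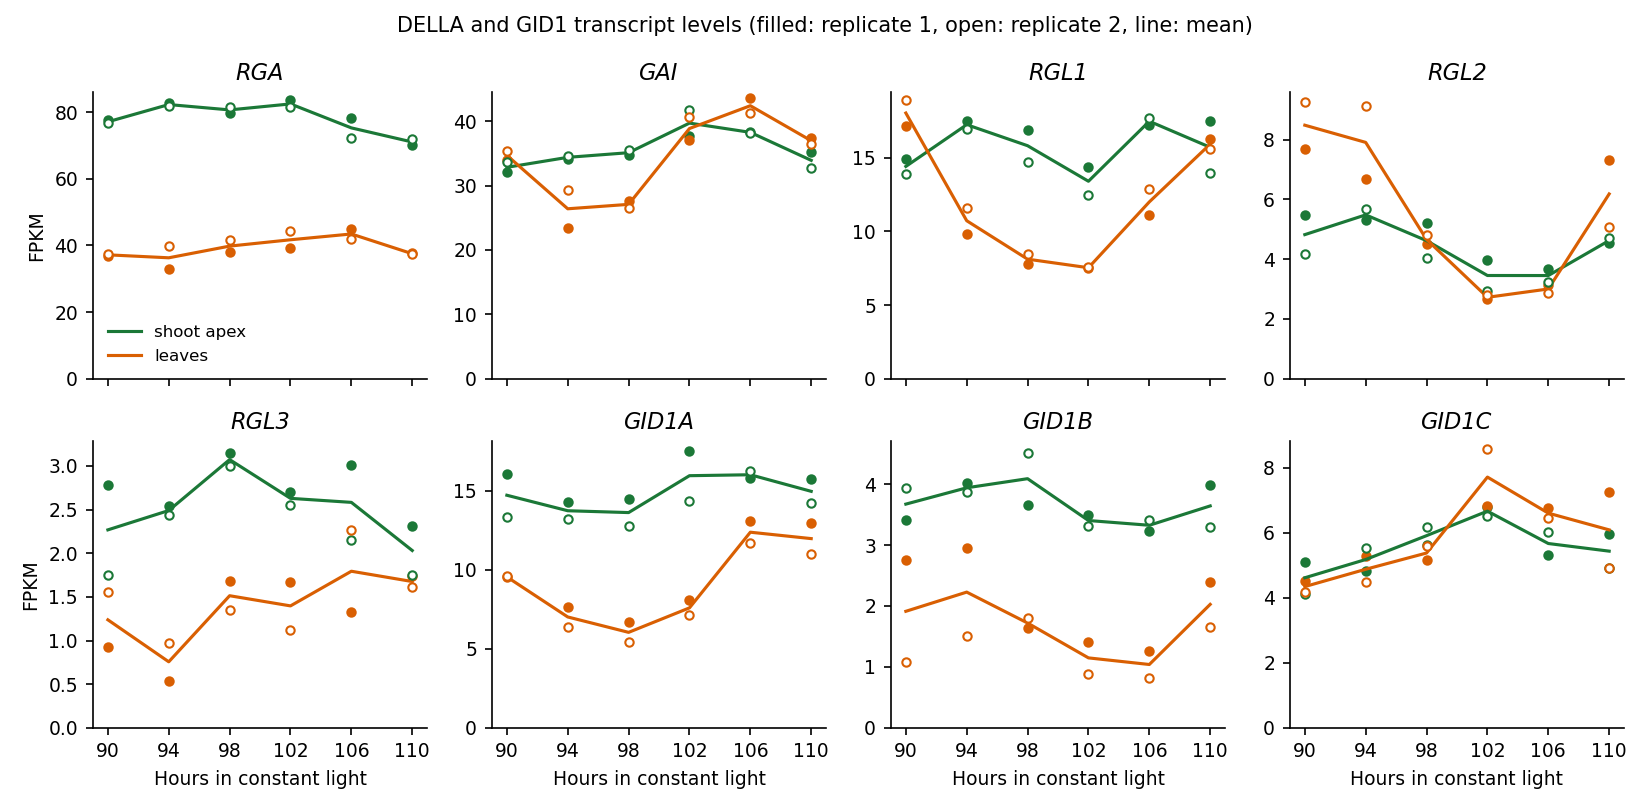
Transcript levels of the 8 genes in FPKM (vertical axis) at ZT 90 to 110 h (horizontal axis), with 1 panel per gene; filled points are replicate 1, open points replicate 2 and lines the mean of the 2. RGA in the shoot apex lay above all its leaf values at each time, while the RGL1 and RGL2 lines of the 2 tissues cross.

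Markers were compared with the tissue labels. The 6 meristem markers, among them CUC2 of organ boundaries and AS2 of primordia, summed to 53.9 to 83.3 FPKM in the shoot apex and 0.84 to 2.69 in leaves. AS2, at 1.67 FPKM, was the only 1 of the 6 with a leaf mean of at least 1 FPKM. In the shoot apex 4 of the 6 had a mean of at least 1 FPKM. WUS and CLV3 were near the floor there, with means of 0.064 and 0.513 FPKM, and were listed at 0 throughout in leaves. Neither passed the filter on low values, so neither was tested. The 5 leaf markers summed to 1840 to 2656 FPKM in the shoot apex and to 13586 to 21768 in leaves. The 3 phloem markers summed to 14.1 to 22.3 FPKM in the shoot apex and 115 to 173 in leaves, but they differed among themselves. Means were 10.1 and 98.96 FPKM for SUC2, and 0.11 and 29.5 for SWEET12, a marker of leaf phloem parenchyma. APL was closer between the tissues, at 7.93 and 9.90 FPKM. The 4 root markers summed to 34.9 to 40.7 FPKM in the shoot apex and 24.2 to 32.4 in leaves. Most of both sums came from SCR and GL2, which are not specific to roots. SCR marks root and shoot endodermis (means of 19.9 FPKM in the shoot apex and 12.5 in leaves). GL2 marks root hair and trichome patterning (16.8 and 15.1 FPKM). EXPA7 was listed at 0 in both tissues. WOX5 had a mean of 1.64 FPKM in the shoot apex and was listed at 0 in leaves. The part of cell makeup in the tissue differences below was not tested. Because these are bulk samples, fewer cells of a type and less RNA per cell cannot be told apart. Depth was not given, and an estimate from the steps between FPKM values put shoot apex libraries at 7.6 to 14.8 M reads and leaf libraries at 11 to 14.4 M. That depth gave an estimated 1361 to 2880 reads for RGA in a shoot apex library, but 17 to 57 for RGL3 and 19 to 83 for GID1B in a leaf library. The median of all 19986 tested genes was itself 0.58 higher in the shoot apex on the log2(FPKM + 1) scale, and 0.02 after the libraries were rescaled to a common centre. Tissue differences of the 8 genes, and counts and medians of the pathway lists, are therefore given on both scales. Single genes of the lists are on the deposited scale unless rescaling is named.

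RGA was the DELLA with the largest tissue difference in the deposited values. Its lowest, median and highest levels were 70.1, 79.2 and 83.6 FPKM in the shoot apex and 32.9, 38.5 and 45.01 FPKM in leaves. The tissues did not overlap at any of the 6 times, and the shoot apex mean was 1.99 times the leaf mean. The difference was 0.98 ± 0.037 (SE) in log2(FPKM + 1), with a limma adjusted p of 3.98e-13, and 0.30 after rescaling (adjusted p 2.54e-05). GAI, its closest relative, had levels of 32.1, 34.96 and 41.7 FPKM in the shoot apex and 23.4, 35.99 and 43.6 FPKM in leaves. Here the tissues overlapped, with a log2 difference of 0.07 ± 0.039 (limma adjusted p 0.0922). Without leaves ZT94 replicate 2 that difference passed, at 0.10 with an adjusted p of 0.0124. After rescaling GAI was lower in the shoot apex, at a log2 difference of -0.60 (adjusted p 1.22e-08).

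RGL1 had lowest, median and highest levels of 12.5, 15.9 and 17.7 FPKM in the shoot apex and 7.52, 11.4 and 18.9 FPKM in leaves. The tissues overlapped, because the highest leaf library exceeded every shoot apex library. The mean log2 difference was 0.41 ± 0.047 (limma adjusted p 5.03e-07) and turned to -0.23 after rescaling (adjusted p 0.000907). It moved with time, from -0.30 at 90 h to 0.88 at 98 h. RGL2 had levels of 2.94, 4.35 and 5.67 FPKM in the shoot apex and 2.66, 4.93 and 9.26 FPKM in leaves, again with overlap. Its log2 difference was -0.18 ± 0.071 (limma adjusted p 0.0237), from -0.71 at 90 h to 0.25 at 102 h, and -0.75 after rescaling. The adjusted p was 0.0528 to 0.0544 without any of 5 libraries (shoot apex ZT90, ZT98 and ZT102 replicate 2, leaves ZT94 replicate 2 and leaves ZT110 replicate 1). Within replicate 1 alone the RGL2 difference was -0.09 (limma adjusted p 0.555) and within replicate 2 alone -0.28 (0.0942). For RGL1 these values were 0.53 (0.00944) and 0.29 (0.0987). RGL3 was at 1.75 to 3.15 FPKM in the shoot apex and 0.538 to 2.26 in leaves, with a log2 difference of 0.57 ± 0.085 (limma adjusted p 1.02e-05) and 0.12 after rescaling (adjusted p 0.207).

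Of the receptors, GID1B showed the largest tissue difference in the deposited values, where GID1C showed none that passed. GID1B had lowest, median and highest levels of 3.24, 3.57 and 4.52 FPKM in the shoot apex and 0.824, 1.58 and 2.95 FPKM in leaves, without overlap. The log2 difference was 0.84 ± 0.10 (limma adjusted p 7.22e-07), and 0.36 after rescaling (adjusted p 0.00376). GID1A had levels of 12.8, 14.4 and 17.5 FPKM in the shoot apex and 5.404, 8.79 and 13.1 FPKM in leaves. Its 2 shoot apex libraries were above its 2 leaf libraries at each of the 6 times, although the ranges over all times overlapped. The log2 difference was 0.69 ± 0.054 (limma adjusted p 3.57e-09), and 0.06 after rescaling (adjusted p 0.205). GID1C overlapped between the tissues, at 4.12 to 6.80 FPKM in the shoot apex and 4.18 to 8.59 in leaves. Its log2 difference was -0.04 ± 0.062 (limma adjusted p 0.545) and -0.62 after rescaling (adjusted p 7.33e-08).

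In all, 6 of 8 genes differed between the tissues at an adjusted p of 0.05, against 90.1% of all tested genes. Of these, 5 were higher in the shoot apex (68.6% of all genes were) and 1, RGL2, was higher in leaves (21.4%). After rescaling, 43.1% of all genes passed as higher in the shoot apex, and 41.4% passed as higher in leaves. On that scale RGA and GID1B were higher in the shoot apex, GAI, RGL1, RGL2 and GID1C were higher in leaves, and RGL3 and GID1A did not pass. The median difference of the 8 genes was 0.49 in log2, beside 0.58 for all genes.

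**Figure D2:**
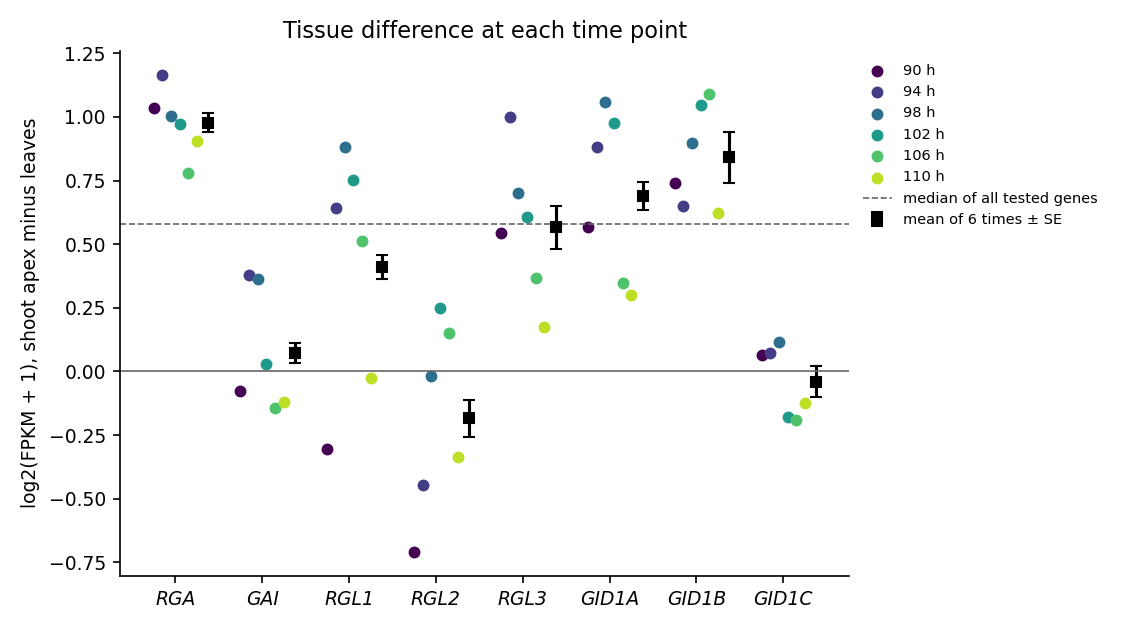
Difference in log2(FPKM + 1), shoot apex minus leaves (vertical axis), for each gene (horizontal axis) at each of the 6 times; squares with bars are the mean over times ± SE and the dashed line is the median of all tested genes (0.58). RGA and GID1B lie above the line throughout, while GAI, RGL1, RGL2 and GID1C lie on either side of 0.

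Time courses were compared by an F-test over the 6 times and by a 24 h wave, whose amplitude is the height of the wave above its mean in log2 and whose peak is given in hours modulo 24, with 0 at subjective dawn. The window spanned 20 h, so another smooth course of that length would pass as well, and these cannot be told apart. In leaves RGL2 and RGL1 moved most. RGL2 in leaves stood at 7.70 and 9.26 FPKM in replicates 1 and 2 at 90 h, at 6.67 and 9.14 at 94 h, and at 4.51 and 4.80 at 98 h. It then stood at 2.66 and 2.78 FPKM at 102 h, 3.15 and 2.85 at 106 h and 7.30 and 5.06 at 110 h. It was thus high in the subjective night and low by day, with a mean at 90 h that was 3.12 times that at 102 h and no overlap between these groups. The leaf wave had an amplitude of 0.73 ± 0.065 with its peak at 19.3 ± 0.341 h (limma adjusted p 5.36e-08). In the shoot apex RGL2 ran from a mean of 3.45 FPKM to 5.48 FPKM, 1.59-fold, and its amplitude was 0.27 ± 0.065 with the peak at 20.3 h (limma adjusted p 0.0204). The shoot apex wave did not pass without shoot apex ZT94, ZT102 or ZT106 replicate 2, with an amplitude of 0.23 to 0.25 and an adjusted p of 0.0624 to 0.0733.

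RGL1 in leaves stood at 17.2 and 18.9 FPKM in replicates 1 and 2 at 90 h, at 9.86 and 11.6 at 94 h, and at 7.78 and 8.46 at 98 h. It stood at 7.52 and 7.55 FPKM at 102 h, 11.1 and 12.9 at 106 h and 16.3 and 15.6 at 110 h. The lowest and highest times did not overlap and differed 2.40-fold. The leaf amplitude was 0.59 ± 0.060 with the peak at 15.96 ± 0.385 h (limma adjusted p 3.11e-07). In the shoot apex RGL1 varied 1.30-fold between times, and its amplitude was 0.03 ± 0.060 (limma adjusted p 0.967).

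GAI in leaves stood at 34.0 and 35.4 FPKM in replicates 1 and 2 at 90 h, at 23.4 and 29.4 at 94 h, and at 27.7 and 26.5 at 98 h. It stood at 37.1 and 40.7 FPKM at 102 h, 43.6 and 41.3 at 106 h and 37.4 and 36.5 at 110 h. GAI was therefore lowest late in the subjective night and highest by late day, 1.61-fold apart, when RGL2 was near its lowest. The leaf amplitude was 0.33 ± 0.043 with the peak at 10.9 ± 0.495 h (limma adjusted p 9.44e-06), and in the shoot apex it was 0.13 ± 0.043 (adjusted p 0.142). RGA varied least in leaves, 1.20-fold from 36.3 FPKM at 94 h to 43.5 at 106 h, with an amplitude of 0.12 ± 0.034 and a peak at 7.66 ± 1.08 h (limma adjusted p 0.0220). The RGA wave did not pass without leaves ZT94 replicate 1, ZT102 replicate 2 or ZT106 replicate 1 (adjusted p 0.0635 to 0.0717). RGL3 in leaves ran from 0.757 to 1.79 FPKM, and its amplitude of 0.25 ± 0.083 had a limma adjusted p of 0.0511. That p was 0.0269 with a replicate block inside each tissue. It was also between 0.0212 and 0.0485 without any of 7 libraries (shoot apex ZT90 replicates 1 and 2 and ZT106 replicate 1, and leaves ZT90 replicate 2, ZT98 replicate 1, ZT102 replicate 2 and ZT106 replicate 1).

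GID1A had the largest leaf wave of the receptors. It stood at 9.51 and 9.59 FPKM in replicates 1 and 2 at 90 h, at 7.65 and 6.38 at 94 h, and at 6.68 and 5.404 at 98 h. It stood at 8.07 and 7.11 FPKM at 102 h, 13.1 and 11.7 at 106 h and 12.9 and 11 at 110 h. The last 2 times were above all 4 earlier ones without overlap, and the means at 98 h and 106 h differed 2.05-fold. The amplitude was 0.49 ± 0.050 with the peak at 12.98 ± 0.397 h (limma adjusted p 4.92e-07), against 0.11 ± 0.050 in the shoot apex (adjusted p 0.351). GID1C in leaves ran from a mean of 4.34 FPKM at 90 h to 7.71 at 102 h, 1.78-fold. Its leaf amplitude was 0.31 ± 0.059 with the peak at 7.89 ± 0.726 h (limma adjusted p 0.000806), and 0.19 ± 0.059 in the shoot apex (adjusted p 0.0940, or 0.0450 without leaves ZT110 replicate 1).

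GID1B in leaves was the least even between replicates. It stood at 2.75 and 1.08 FPKM in replicates 1 and 2 at 90 h, at 2.95 and 1.51 at 94 h, and at 1.64 and 1.80 at 98 h. It stood at 1.41 and 0.889 FPKM at 102 h, 1.25 and 0.824 at 106 h and 2.40 and 1.65 at 110 h. The gap between the replicates at 90 h was wider than the whole range of the 6 time means. The amplitude was 0.29 ± 0.093 with the peak at 19.9 ± 1.20 h (limma adjusted p 0.0409). It did not pass without any of 6 leaf libraries (ZT90, ZT94 and ZT106 replicate 1, and ZT102, ZT106 and ZT110 replicate 2), with an adjusted p of 0.0509 to 0.128. Within replicate 1 alone the amplitude was 0.43 (limma adjusted p 0.00616), and within replicate 2 alone it was 0.19 (0.390). In the shoot apex the amplitude was 0.10 ± 0.093 (adjusted p 0.797).

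**Figure D3:**
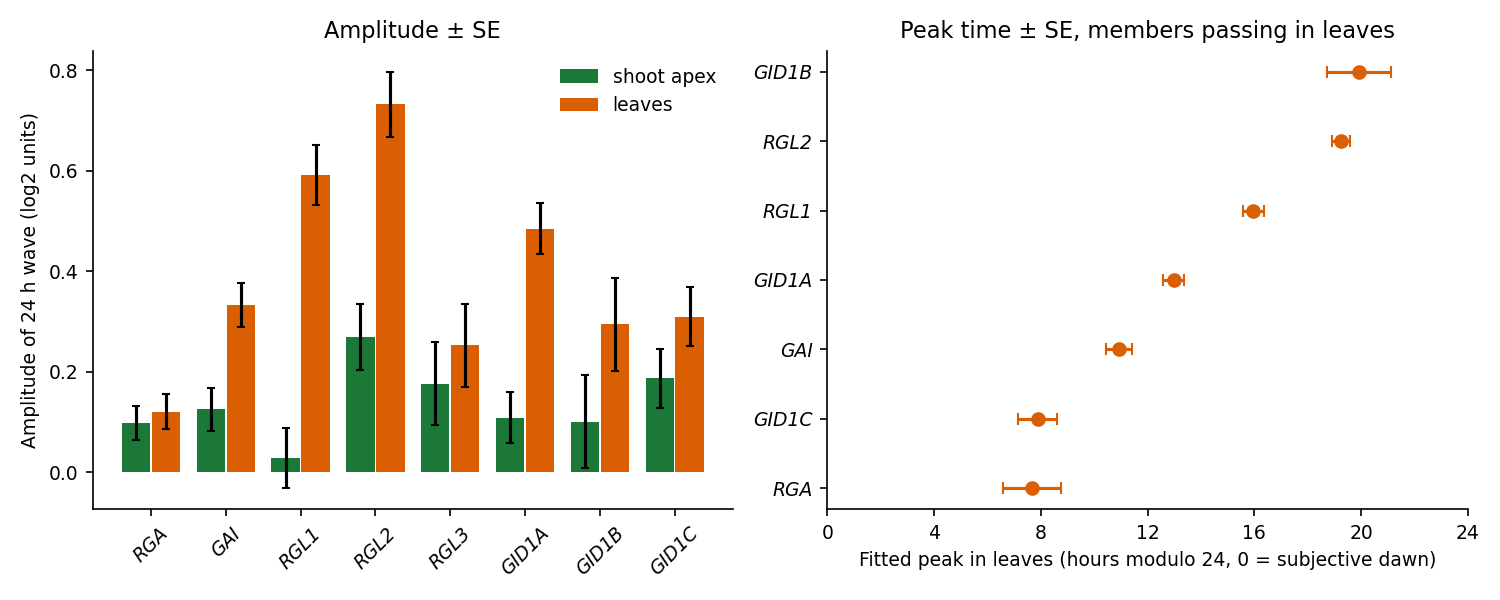
Left, fitted 24 h wave amplitude in log2(FPKM + 1) in each tissue for the 8 genes, with bars of ± SE; right, fitted peak in leaves in hours modulo 24 ± SE for the 7 genes that passed there. RGL2, RGL1 and GID1A have the highest leaf amplitudes (0.73, 0.59 and 0.49), and leaf peaks run from 7.66 h (RGA) to 19.9 h (GID1B).

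By counts, 7 of 8 genes passed the wave test in leaves, all but RGL3, against 40.9% of all tested genes, and 1 of 8 passed in the shoot apex, against 13% of all. RGL2 alone passed in both tissues, as did 9.78% of all genes. By the F-test over times 5 of 8 passed in leaves (GAI, RGL1, RGL2, GID1A and GID1C; 23.2% of all genes) and 0 in the shoot apex (4.67% of all), where 1 had an unadjusted limma p below 0.05. The F-test call of GID1C in leaves, at an adjusted p of 0.0220, was lost without leaves ZT90 replicate 1, ZT90 replicate 2 or ZT102 replicate 2 (0.0502 to 0.0940). GID1B passed it without leaves ZT90 replicate 2, at 0.0456. With a replicate block inside each tissue the leaf counts were 6 by the F-test (43.7% of all genes), where GID1B was added at an adjusted p of 0.0260, and 8 by the wave test (54.1%). The median leaf amplitude of the 8 genes was 0.32, beside 0.17 over all genes, and the median shoot apex amplitude 0.12, beside 0.11.

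The difference of the waves between the tissues was tested itself. It passed for 4 of 8 genes, against 10.6% of all tested genes. For RGL1 the amplitude in the shoot apex minus that in leaves was -0.56 ± 0.084 (limma adjusted p 0.000536), for RGL2 -0.46 ± 0.092 (0.00539), for GID1A -0.38 ± 0.071 (0.00230) and for GAI -0.21 ± 0.061 (0.00950). The leaf wave was the larger in all 4. For GAI the test did not pass after rescaling (adjusted p 0.0869). It did not pass for RGA (adjusted p 0.0971), RGL3 (0.160), GID1B (0.537) or GID1C (0.415). With a replicate block inside each tissue 5 genes passed (20.2% of all genes), with RGA added at 0.0428. Fitted within 1 replicate number alone, the leaf amplitudes were 0.60 and 0.59 for RGL1, 0.67 and 0.82 for RGL2, 0.46 and 0.51 for GID1A and 0.39 and 0.28 for GAI (replicate 1, then replicate 2), each with an adjusted p that passed. With 1 library per group the tissue difference of the waves passed for RGL1 in replicate 1 (-0.57) and for GID1A in replicate 2 (-0.38).

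The ratio of summed DELLA to summed GID1 transcripts overlapped between the tissues, whereas the ratio of RGA to GAI did not. The 5 DELLA transcripts summed to 137 ± 5.94 FPKM in the shoot apex and 92.7 ± 9.89 in leaves (SD, n = 12), and the 3 GID1 transcripts to 24.1 ± 1.73 and 16.6 ± 3.14 FPKM. The DELLA sum was 5.69 ± 0.414 times the GID1 sum in the shoot apex and 5.70 ± 0.876 times in leaves. Both means pool replicate numbers that differed. In leaves the ratio was lower in replicate 1 than in replicate 2 at each of the 6 times, with 4.62 and 7.34 at 94 h and 4.94 and 5.34 at 106 h. In the shoot apex it was lower in replicate 1 at all times but 106 h (5.77 and 5.21). Within a library these ratios do not depend on the scale of the library. RGA made up 57.3% of DELLA transcripts in the shoot apex and 42.7% in leaves, GAI 26.2% and 36.9%, RGL1 11.5% and 12.9%, RGL2 3.23% and 5.99% and RGL3 1.83% and 1.499%. The ratio of RGA to GAI was 2.20 ± 0.185 in the shoot apex (lowest 1.89) and 1.17 ± 0.195 in leaves (highest 1.57). GID1A made up 61.5% of receptor transcripts in the shoot apex and 54.1% in leaves, GID1B 15.4% and 10.4%, and GID1C 23.1% and 35.5%.

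**Figure D4:**
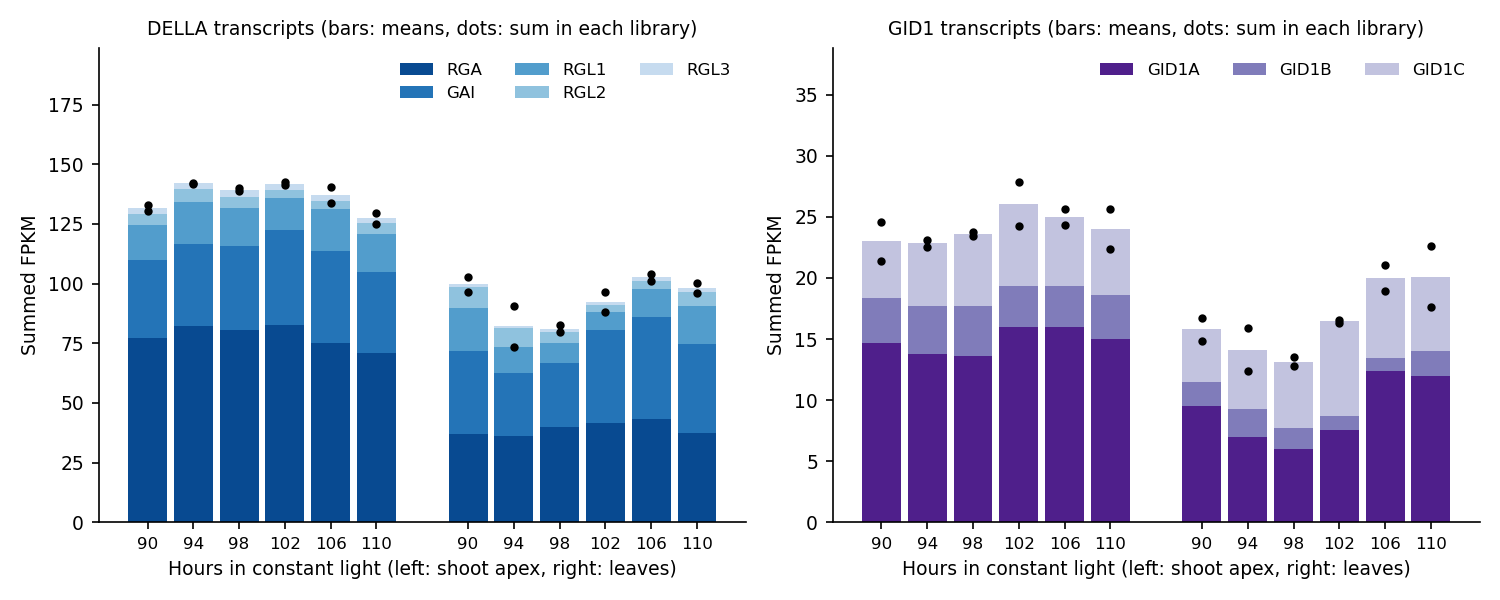
Summed FPKM (vertical axis) of the 5 DELLA transcripts (left panel) and the 3 GID1 transcripts (right panel) by hours in constant light, shoot apex first and leaves second; stacked bars are group means and dots the sum in each of the 2 libraries. RGA fills most of the shoot apex DELLA bars (57.3%) and less of the leaf bars (42.7%), and the leaf sums are lowest at 98 h (81.2 and 13.1 FPKM).

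In leaves the DELLA sum had its lowest mean at 98 h (81.2 FPKM) and its highest at 106 h (103 FPKM), and the GID1 sum ran from 13.1 FPKM at 98 h to 20.1 at 110 h. The leaf ratio of RGA to GAI was 1.40 and 1.35 at 94 h and 1.37 and 1.57 at 98 h (replicates 1 and 2). At the other 4 times it was between 1.01 and 1.09. As a description over the 12 leaf libraries, which share their depth and sampling times between genes, Pearson's r was 0.70 for GAI and GID1A, -0.74 for RGL2 and GID1C and -0.74 for RGA and GID1B. Over the 12 shoot apex libraries it was -0.84 for GAI and RGL2.

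The replicate numbers were compared within each tissue. In the shoot apex 1 of 8 differed (GID1A, replicate 1 minus replicate 2 of 0.15 ± 0.048 in log2, limma adjusted p 0.0417), against 20.7% of all tested genes. That call was lost without any of 14 libraries, with an adjusted p of 0.0501 to 0.126: both replicates of the shoot apex at ZT90, ZT94, ZT98, ZT102 and ZT110, and of leaves at ZT102 and ZT110. In leaves 2 of 8 differed (30.7% of all), both higher in replicate 1 (20.1% of all) in the deposited values. GID1A differed by 0.17 ± 0.048 (limma adjusted p 0.0167, or 0.0570 and 0.0572 without leaves ZT98 replicate 1 or 2) and GID1B by 0.41 ± 0.099 (0.00602). Each was higher in replicate 1 at 5 of 6 times, with means for GID1B of 2.07 and 1.29 FPKM. After rescaling 3 of 8 passed in leaves: GID1B was still higher in replicate 1 (0.38, limma adjusted p 0.0111), while RGA (-0.17, 0.0134) and RGL1 (-0.18, 0.0231) were lower there, and GID1A did not pass (0.09, 0.129). Among the genes that did not pass in the shoot apex, RGL3 was above in replicate 1 at 6 of 6 times (0.20 ± 0.11, limma adjusted p 0.189) and RGL1 at 5 of 6 (0.13 ± 0.051, 0.0814). The salicylate marker PR1 moved with the same number in leaves, at 221 ± 121 FPKM in replicate 1 and 7.57 ± 12.9 in replicate 2 (SD, n = 6). PR1 in the shoot apex was at 18.9 ± 10.6 and 2.57 ± 2.62 FPKM (2.49 in log2, limma adjusted p 0.00479), while GID1B differed by -0.02 there (adjusted p 0.887). PR2 and ICS1, the other salicylate markers, were also higher in replicate 1 of leaves (4.26 and 1.72 in log2, limma adjusted p 3.92e-07 and 6.08e-07). In the shoot apex PR2 and ICS1 did not pass (0.38 and -0.004, adjusted p 0.412 and 0.987). Whether any of these markers has a part in the leaf GID1B difference was not tested.

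The pathway lists are given beside the shares of all tested genes, of which 68.6% had their higher level in the shoot apex and 21.4% had it in leaves (43.1% and 41.4% after rescaling). Of 11 genes that act on DELLA proteins (F-box proteins, sugar transferases, ubiquitin ligases and deubiquitinases), 9 passed as higher in the shoot apex and 1 as higher in leaves, and 1 did not pass, close to the shares of all genes, with a median log2 difference of 0.75 beside 0.58 for all genes. After rescaling 5 were higher in each tissue, and the median was 0.09. SLY1, the F-box protein, stood at a mean of 23.7 FPKM in the shoot apex and 9.04 in leaves, a log2 difference of 1.29 ± 0.063 (limma adjusted p 8.01e-12). SPY, an O-fucosyltransferase that activates DELLAs, differed by 1.01 ± 0.041 (8.39e-13), and the deubiquitinase UBP13 by 0.76 ± 0.039 (1.77e-11). After rescaling the differences were 0.65 for SLY1, 0.39 for SPY and 0.11 for UBP13. BRG2, a RING protein that binds DELLAs, was the 1 higher in leaves, at -0.62 ± 0.063 (limma adjusted p 1.00e-07), and had a leaf amplitude of 0.75 with the peak at 16.8 h. COP1, a ubiquitin ligase, had a leaf amplitude of 0.22 with the peak at 18.3 h, and its tissue difference of 0.16 turned to -0.45 after rescaling. Of the 11, 4 passed the wave test in leaves (40.9% of all genes) and 2 in the shoot apex (13%), again near those shares.

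Of 13 transcription factors that DELLAs bind, 9 passed as higher in the shoot apex and 3 as higher in leaves, 1 did not pass, and after rescaling the split was 5 and 7. Over all genes 68.6% and 21.4% passed (43.1% and 41.4% after rescaling), so these counts were near the background. The median was 0.46, or -0.20 after rescaling. ARF6, an auxin response factor, was at a mean of 53.4 FPKM in the shoot apex and 11.4 in leaves, a log2 difference of 2.14 ± 0.049 (limma adjusted p 1.36e-15), and the zinc finger factor IDD2 differed by 1.47 ± 0.048 (6.84e-14). PIF5 and PIF4, growth-promoting bHLH factors that DELLAs hold back, were lower in the shoot apex, at a log2 difference of -1.25 ± 0.054 (1.84e-12) and -0.97 ± 0.064 (3.90e-10). The wave test passed for 9 of the 13 in leaves (40.9% of all genes) and 5 in the shoot apex (13%). Leaf amplitudes were 1.93 for PIF4, with the peak at 6.13 h, and 1.35 for PIF5, with the peak at 3.68 h.

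Of 9 genes known as DELLA targets, 6 passed as higher in the shoot apex and 1 as higher in leaves, and 2 did not pass (4 and 3 called after rescaling), with a median of 0.68, or 0.14 after rescaling. The shares over all genes were 68.6% and 21.4% (43.1% and 41.4% after rescaling), near these counts. GA20OX2 and GA3OX1, gibberellin synthesis enzymes that DELLAs raise, differed by 1.28 ± 0.061 (limma adjusted p 6.17e-12) and 1.44 ± 0.11 (2.45e-09), and LBD40 by 0.94 ± 0.057 (1.18e-10). LBD40 and GA20OX2 had leaf means near the floor, at 0.025 and 0.099 FPKM, beside shoot apex means of 1.03 and 1.68 FPKM. Both could enter the test through their shoot apex values alone, which favours that direction. GA3OX1 had a leaf mean of 2.64 FPKM. AT5G50915 was lower in the shoot apex, at a log2 difference of -0.98 ± 0.082 (8.15e-09), with a leaf amplitude of 0.53, and XERICO, a RING protein of the abscisic acid pathway, had a leaf amplitude of 0.52 with the peak at 9.88 h. The wave test passed for 6 of the 9 in leaves (40.9% of all genes) and 2 in the shoot apex (13%).

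Genes induced by gibberellin were split. Of 7, 2 passed as higher in the shoot apex and 4 as higher in leaves, and 1 did not pass (1 and 4 after rescaling), with a median of -0.53, or -1.11 after rescaling. Over all genes the shares were 68.6% and 21.4%, in the same order (43.1% and 41.4% after rescaling). The median gene was PRE6, which is listed as a helix-loop-helix gene with no note of induction. GASA1, a gibberellin-regulated peptide gene, stood at 11.9 FPKM in the shoot apex and 173 in leaves, -3.81 ± 0.20 in log2 (limma adjusted p 2.14e-11), and the helix-loop-helix gene PRE1 at 0.652 and 6.58 FPKM (1.61e-12). GASA4 went the other way, at 219 and 46.7 FPKM (2.24 ± 0.085, 4.11e-13). GASA14 was 0.67 higher in the shoot apex and -0.01 after rescaling, and had a leaf amplitude of 1.17 with the peak at 11.4 h. The wave test passed for 5 of the 7 in leaves (40.9% of all genes) and 3 in the shoot apex (13%).

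Gibberellin synthesis and breakdown genes were tested for 13 of the 17 listed. Of these, 11 passed as higher in the shoot apex and 1 as higher in leaves, and 1 did not pass (10 and 2 after rescaling), with a median of 1.03, or 0.70 after rescaling. Over all genes 68.6% and 21.4% passed (43.1% and 41.4% after rescaling). A gene low in leaves could enter the test through the shoot apex alone, which favours that direction. Leaf means were near the floor, at 0.078 FPKM for GA1, 0.099 for GA20OX2, 0.17 for GA2OX1, 0.006 for GA2OX4 and 0.41 for GA2OX6. Their shoot apex means were 0.865, 1.68, 1.57, 0.825 and 3.46 FPKM. GA2OX1 was the median gene, and GA2OX4 after rescaling. GA3OX2, the 1 higher in leaves, was at 0.29 and 0.73 FPKM. The wave test passed for 7 of the 13 in leaves (40.9% of all genes) and 2 in the shoot apex (13%). GA20OX2 and GA3OX1 were also in the list of DELLA targets and count as higher in the shoot apex in both lists. KAO2, KAO1, GA3 and GA2, oxidases and a synthase of the early steps, differed by 1.49 ± 0.046, 1.01 ± 0.041, 1.25 ± 0.047 and 1.61 ± 0.081 in log2 (limma adjusted p 3.44e-14, 7.93e-13, 3.73e-13 and 1.31e-11). After rescaling these differences were 0.85, 0.45, 0.61 and 1.04.

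**Figure D5:**
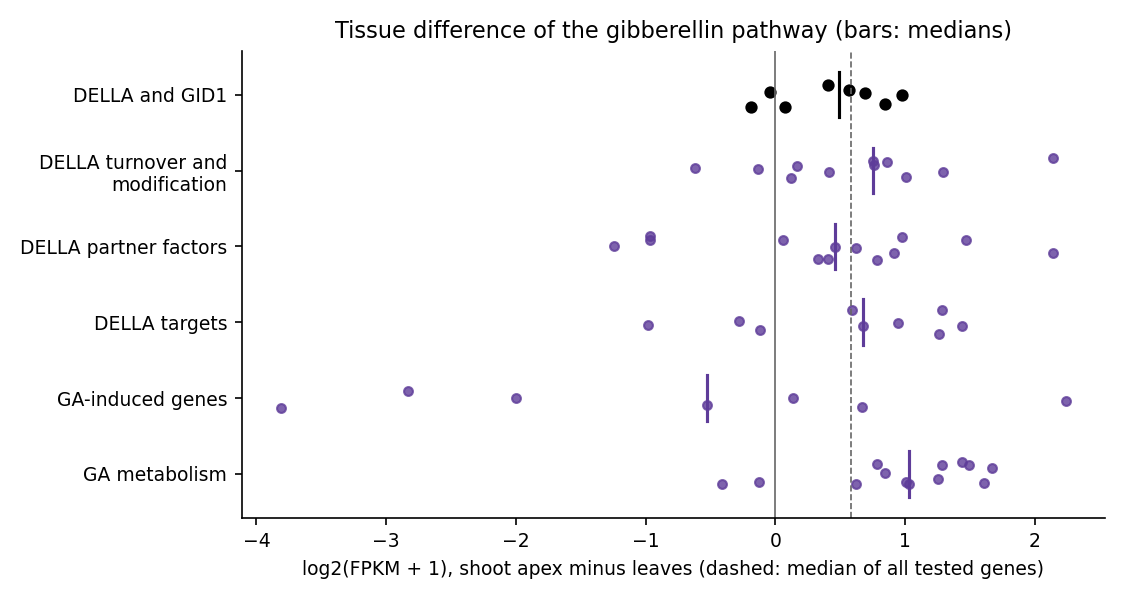
Difference in log2(FPKM + 1), shoot apex minus leaves (horizontal axis), for the DELLA and GID1 genes and the 5 lists of the gibberellin pathway; points are genes, bars list medians and the dashed line the median of all tested genes (0.58). Medians run from -0.53 for the list of gibberellin-induced genes, where PRE6 is the median gene, to 1.03 for gibberellin metabolism, where GA2OX1 is. GA20OX2 and GA3OX1 appear under both targets and metabolism.

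The transcripts most like each gene over the 12 libraries of a tissue, among tested genes with a mean of at least 5 FPKM, were found by Pearson's r on log2(FPKM + 1), as a description of libraries that share their sampling times. In leaves, among 11287 genes, RGL2 was most like AT4G35270 (r 0.987) and VTC2, an enzyme of vitamin C synthesis (0.985). RGL1 was most like AT3G10840 (0.980) and AT1G05140 (0.976), GAI like AT3G07010 (0.966) and DRT100 (0.957), and RGA like TUB8, a tubulin (0.919), and AT2G42300 (0.911). GID1A was most like CBL2, a calcium sensor (0.985), and AT4G27130 (0.985), and GID1C like PDIL5-2 (0.943) and AT3G03870 (0.897). In the shoot apex, among 14019 genes, GAI was most like CYP97B3 (0.950) and WRKY3 (0.942), and GID1C like AT1G73470 (0.956) and AT5G44520 (0.941). GID1A was most like AT5G48412 (0.943) and CKS (0.934), RGA like AT5G13760 (0.912) and SWEET17 (0.901), and RGL1 like MES10 (0.830) and AT4G24805 (0.823).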

How the data were processed

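Reads were single-end, 50 bp, from polyadenylated RNA. The authors deposited 1 table of FPKM values for 33323 genes in 24 libraries. STAR 2.5.0c, HOMER and TAIR10 are named in the submitters' processing notes; the FPKM settings and the treatment of reads shared between gene copies are not given in the sources used here. A gene with a text cell (1) was left out.

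A gene was tested where 2 or more libraries reached 1 FPKM (19986 genes). Values entered limma (version 3.58.1 under R 4.3.3, trended empirical Bayes) as log2(FPKM + 1) (pseudocount 1, Benjamini-Hochberg adjustment over all tested genes, threshold 0.05), after a check on simulated data. Folds on this scale understate the change of low genes. The tissue contrast was the mean of 6 shoot apex groups minus that of 6 leaf groups. A wave was a cosine plus a sine of 24 h period, fitted per tissue, and period was not estimated. Rescaled libraries were divided by the median of their ratios to the gene-wise geometric mean.

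P-values measure the spread between samples labelled as replicates, described as 2 independent experiments. Deviations of libraries with the same number correlated within leaves (r 0.55 to 0.76 over 15 pairs of times) and within the shoot apex (0.16 to 0.44), so replicate number was blocked within tissue as an alternative. Between tissues at the same time r was 0.05 to 0.32.

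The members and lists were chosen with earlier results of these data known. All 8 members were named, and per list up to 3 genes with the smallest adjusted p for the tissue difference and up to 2 for a leaf wave, among those called. Depth is an estimate and intervals for counting error were not used. Sequences and gene models came from RefSeq TAIR10.1, matched by locus identifier for all 8; the deposited table holds no coordinates. Alternatives were another pseudocount (0.1), no filter, a mean FPKM of at least 5, rescaling, replicate blocks, each tissue alone, periods of 22 and 26 h and leaving out libraries. Other steps ran in Python 3.11.15 with matplotlib 3.10.9, numpy 2.4.6 and pandas 2.3.3.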

Additional observations from a re-analysis of the deposited data

Results flagged for a closer look

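The wave of 4 genes differed between the shoot apex and leaves by a test of the difference itself (limma, adjusted over all tested genes). The amplitude in the shoot apex minus that in leaves was -0.56 in log2(FPKM + 1) for RGL1, -0.46 for RGL2, -0.38 for GID1A and -0.21 for GAI.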

How the results depend on the processing

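Of 2008 values recomputed under alternatives, 1905 kept their side of the threshold, 63 lost a call, 20 gained one and 20 changed sign. Sign changes were counted for tissue and replicate differences. Time ranges and amplitudes cannot be negative. Wave differences were not counted by sign, and the amplitude difference of RGL3 went from -0.076 to 0.017 within replicate 2 alone. For RGA it went from -0.023 to as high as 0.0022. After rescaling, the tissue difference changed sign for GAI (-0.60) and RGL1 (-0.23), and so did the uncalled replicate differences in the shoot apex of RGA (-0.054) and GID1C (-0.041). With a mean FPKM of at least 5, which left 5 of the 8 genes, 3 differed between tissues, 0 had a shoot apex wave and 1 differed between replicate numbers in leaves. The shoot apex wave count was 0 at a period of 26 h and 2 with each tissue fitted alone, and the replicate count in the shoot apex was 0 with a pseudocount of 0.1 and after rescaling. Single leaf waves also lost their call: GID1B with no filter (adjusted p 0.0614), at 26 h (0.0671) and with leaves alone (0.171), and RGA with leaves alone (0.0807). GID1C lost its F-test call over time with leaves alone (0.124), which left 4 of 8 genes. After rescaling 3 genes differed between replicate numbers in leaves, of which GID1B alone was among the 2 of the deposited values. The cause was not tested.

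Leaving out 1 library or 1 replicate number gave 4 to 6 genes that differed between tissues, 0 to 0 that changed over time in the shoot apex and 4 to 5 in leaves. It gave 0 to 2 with a wave in the shoot apex, 5 to 8 in leaves, 1 to 4 with a wave difference, 0 to 1 that differed between replicate numbers in the shoot apex and 1 to 2 in leaves. Uncalled replicate differences that changed sign ran from -0.00065 to 0.030 (RGA), -0.073 to 0.020 (GID1B) and -0.027 to 0.055 (GID1C) in the shoot apex, and from -0.13 to 0.040 (RGL2) and -0.0073 to 0.15 (GID1C) in leaves.

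With the replicate block, 5 of 8 genes changed over time in leaves and 8 had a leaf wave, and with the block within each tissue 6 and 8. Over all genes the block within each tissue took the calls over time from 933 to 2647 in the shoot apex and 4629 to 8740 in leaves, of waves from 2608 to 4182 and 8175 to 10817, and of wave differences from 2127 to 4034. RGL3 and GID1B in leaves rest on the fewest estimated reads, 17 to 57 and 19 to 83 per library.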
